A study of Homo sapiens with 2 samples.

Results

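Broad Rb peaks, meaning called intervals of 1000 bp or more, were taken from lists of binding sites of the retinoblastoma protein Rb in LNCaP and VCaP cells, an established pair of prostate cancer cell lines that express the androgen receptor. They were selected by length alone, in each list separately, on chromosomes 1 to 22 and X. The rule gave 514 broad peaks of 21955 in LNCaP and 21 of 9393 in VCaP, which is 535 of 31348 peaks in all. Both lines had been kept for 3 days in medium with 5% charcoal/dextran-treated serum at passage 10 to 15, and dihydrotestosterone (DHT), the most potent natural androgen, was then added at 10 nM for 4 h. Each line was represented by 1 library of chromatin immunoprecipitated with a mouse monoclonal antibody against Rb (ChIP-seq), so that the lines cannot be tested against each other. Neither untreated cells, nor input, nor repeat cultures were analysed here. Peak lists hold no expression values, and the identity of the lines was taken from the labels.

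Rb is a tumour suppressor that binds no DNA sequence by itself and is brought to chromatin largely by E2F transcription factors, whose target genes serve DNA replication and cell division. Hypophosphorylated Rb holds these genes back in G1, and phosphorylation by cyclin-dependent kinases releases them. E2F sites lie mostly in promoters rich in GC and CpG, close to the start of transcription. An interval far longer than a ChIP fragment can hold several binding sites, a site with wide flanks, or a stretch where tags are dense for another reason, and a peak list does not tell these apart.

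The sequences below are promoters of genes at broad peaks, each with 250 bases before and 50 after a transcription start, read from RefSeq on build GRCh38.p14 on the strand of the gene. They are shown because TYMS and RBM14 lay at peaks that were broad in both lines, REV3L at the longest LNCaP peak and ATL3 at the broad VCaP peak of highest fold enrichment. Capitals mark matches to the E2F motif, searched as TTTCCCGC, TTTCGCGC, TTTGCCGC and TTTGGCGC on both strands. REV3L has 2 listed starts, and the one shown is the one with a match; RBM14 has no match in this window.
TYMS (chromosome 18, plus strand): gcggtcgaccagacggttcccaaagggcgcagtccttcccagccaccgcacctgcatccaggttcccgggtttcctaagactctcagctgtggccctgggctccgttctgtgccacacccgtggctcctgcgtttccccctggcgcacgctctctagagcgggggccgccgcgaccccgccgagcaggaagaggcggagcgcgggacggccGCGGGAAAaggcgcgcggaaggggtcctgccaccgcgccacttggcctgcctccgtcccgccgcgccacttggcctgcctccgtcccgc
RBM14 (chromosome 11, plus strand): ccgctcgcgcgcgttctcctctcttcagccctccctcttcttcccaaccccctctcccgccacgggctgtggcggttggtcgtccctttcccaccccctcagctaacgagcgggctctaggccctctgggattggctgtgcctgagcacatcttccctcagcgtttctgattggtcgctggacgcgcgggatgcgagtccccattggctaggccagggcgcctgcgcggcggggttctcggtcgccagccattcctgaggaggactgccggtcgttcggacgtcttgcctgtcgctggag
REV3L (chromosome 6, minus strand): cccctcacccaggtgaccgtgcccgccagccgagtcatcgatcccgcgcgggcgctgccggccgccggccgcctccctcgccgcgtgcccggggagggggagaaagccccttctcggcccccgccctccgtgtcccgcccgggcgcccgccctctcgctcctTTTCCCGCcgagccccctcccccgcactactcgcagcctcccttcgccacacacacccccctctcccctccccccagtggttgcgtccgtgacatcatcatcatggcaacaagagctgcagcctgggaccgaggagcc
ATL3 (chromosome 11, minus strand): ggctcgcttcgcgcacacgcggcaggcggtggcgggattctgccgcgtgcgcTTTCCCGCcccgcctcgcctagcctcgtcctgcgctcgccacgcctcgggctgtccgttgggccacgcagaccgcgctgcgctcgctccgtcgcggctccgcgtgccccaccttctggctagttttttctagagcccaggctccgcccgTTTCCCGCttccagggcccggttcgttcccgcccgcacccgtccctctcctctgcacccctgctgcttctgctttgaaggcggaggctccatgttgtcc

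The peaks are on build hg19, and no hg19 annotation or genome was used here. Gene names were therefore assigned from general knowledge of hg19 gene positions, for 33 genes. These lay at the longest, shared, unshared, clustered and borderline broad peaks, at those of highest fold enrichment and among all broad VCaP peaks. Peaks without such a name are given by position. Promoters of these genes were rich in CpG. Of the 33 genes, 30 matched the RefSeq promoter table, with 52 listed starts. Their windows had a median of 33 CpG dinucleotides (quartiles 27 and 38) and 70.8% GC, against 14 CpG (4 and 28) and 58.7% GC over all 35116 windows of the table. The E2F motif was found in 7 of the 52 windows, 13.5% (exact 95% interval 5.59 to 25.8), and in 1164 of all windows, 3.31%. Windows of the same gene are not independent, which the interval does not take into account. By gene, 7 of the 30 had a match at a listed start. Among the 16 of these genes with 1 listed start, 3 had the motif, 18.8% (4.05 to 45.6). The windows with a match belonged to TYMS, ATL3 and UBR7, which have 1 listed start each, and to 4 genes with several. At REV3L, MSL2 and PCNA 1 of 2 listed starts had a match, and at GPR137 1 of 4. The genes are a selected set, a listed start need not lie under the peak, and a match is not a binding site. Promoters at shorter Rb peaks were not set beside them, so these values cannot be credited to broad peaks.

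Broad Rb peaks were far more frequent in LNCaP. They made up 2.34% of its list (exact 95% interval 2.15 to 2.55, counting error only), against 0.224% (0.138 to 0.342) in VCaP. LNCaP had 24.5 times as many broad peaks as VCaP, and 2.29 times as many shorter ones. The LNCaP library had 3671482 tags after filtering and the VCaP library 8691938, which makes 139.998 broad peaks per 1000000 tags for LNCaP and 2.42 for VCaP. LNCaP had 73 peaks of 1.25 kb or more and VCaP 4, and at 1500 bp or more 8 in LNCaP and 3 in VCaP. The ratio between the lines was thus not the same at all lengths, and the very longest peak of the series, of 3062 bp, was in VCaP.

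Length ran without a step across the limit. The 3 LNCaP peaks just inside it were each 1000 bp long and lay at AKAP1, an anchor of protein kinase A at mitochondria, at FZD3, a Wnt receptor, and at SMG1, a kinase of nonsense-mediated decay. They had 38, 29 and 25 tags at the summit. The 3 LNCaP peaks just outside were each 999 bp long, with 26, 22 and 24 tags. In VCaP the innermost broad peaks had 1004, 1008 and 1013 bp, with 101, 49 and 121 tags, and those just outside had 987, 960 and 959 bp, with 44, 54 and 20 tags. The summits on either side of the limit overlapped in height in both lists.

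Most broad LNCaP peaks were little longer than the limit and of moderate height. Their length ran from 1000 to 1855 bp with a median of 1087.5 bp (quartiles 1039 and 1183). The summit pileup, the number of extended tags over the highest base as the authors' peak caller gave it, had a median of 23 tags (19 and 30; range 11 to 127) in broad LNCaP peaks, against 13 tags (8 and 19) in shorter ones. Fold enrichment over the local background, the caller's own ratio, had a median of 7.47 (6.40 and 8.73) in broad and 5.98 (4.97 and 7.54) in shorter LNCaP peaks. The 10 kb around broad LNCaP peaks held a median of 96 tags, against 50 tags around shorter ones, and these counts include the peak's own tags. Length and these scores come from the same tags, so that these values describe the selection.

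Among the peaks of highest pileup broad ones were more frequent than in the lists as a whole, and among those of highest fold enrichment they were not. Of the 100 LNCaP peaks of highest pileup 9 were broad, 9% (4.20 to 16.4), and of the 100 of highest fold enrichment 1 was, 1% (0.0253 to 5.45), beside 2.34% of the list. In VCaP 11 of 100 were broad by pileup, 11% (5.62 to 18.8), and 0 of 100 by fold enrichment, for which the exact interval ends at 3.62%, beside 0.224% of the list. The summit also lay off centre more often in broad peaks. It fell in the outermost 25% at either end of the interval in 209 of 514 broad LNCaP peaks, 40.7% (36.4 to 45), and in 14.1% of shorter ones. In VCaP this was so for 10 of 21 broad peaks, 47.6% (25.7 to 70.2), and for 14.4% of shorter ones.

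**Figure D1:**
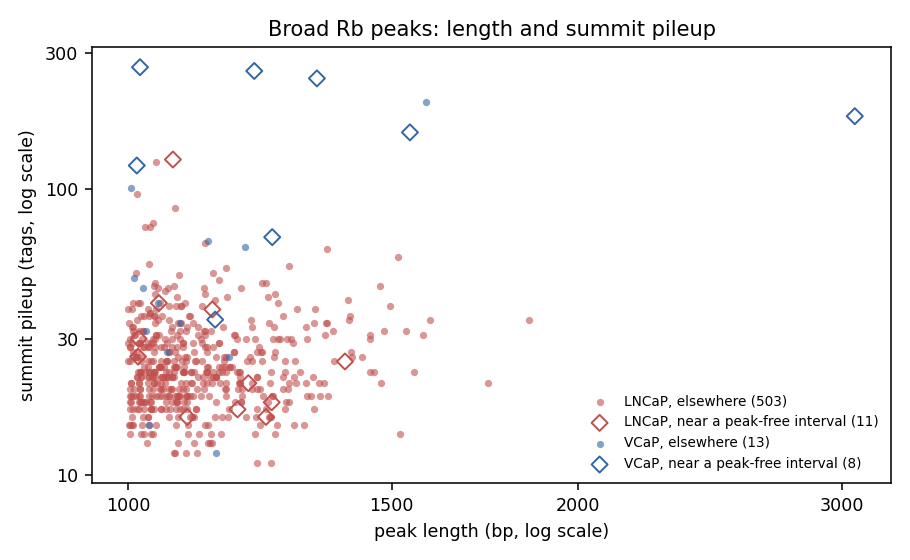
Length in bp (horizontal, log scale) and summit pileup in tags (vertical, log scale) of every broad peak, with LNCaP in red and VCaP in blue; open diamonds lie within 1 Mb of a peak-free interval of at least 2.5 Mb. LNCaP peaks crowd between 1 and 1.25 kb with 11 to 127 tags, and 8 of the 21 VCaP peaks are diamonds, most of them with over 100 tags.

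Of the 10 longest LNCaP peaks 8 lay at genes named here, from DNA repair, chromatin and RNA binding to protein glycosylation. The longest, 1855 bp at chr6:111803453-111805307, lay at REV3L, the catalytic subunit of the translesion DNA polymerase zeta, with 35 tags and a fold enrichment of 7.56. It had no overlapping VCaP peak. The second, 1741 bp at chr3:135914348-135916088, lay at MSL2, a subunit of a histone acetyltransferase complex. It had 21 tags in LNCaP, and its VCaP partner had 20 tags over 495 bp with summits 29 bp apart.

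RNA-binding proteins of the hnRNP family held a pair of these places. HNRNPD, which binds AU-rich mRNA, lay at a LNCaP peak of 1575 bp at chr4:83294246-83295820 with 31 tags. HNRNPDL, its close relative, lay at one of 1515 bp at chr4:83350427-83351941 with 58 tags. The peaks stood 54.6 kb apart and were each other's nearest neighbours in the list. The summit at HNRNPDL was 22 bp from that of its VCaP partner, and the one at HNRNPD was 1223 bp from that of its VCaP partner, which lay at the other side of the interval.

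The remaining ones varied in height. SEPTIN7, a filament-forming GTPase, lay at a LNCaP peak of 1552 bp with 23 tags and a VCaP partner of 225 bp. STT3B, a catalytic subunit of oligosaccharyltransferase, lay at one of 1533 bp with 32 tags, which met 2 VCaP peaks. SYDE2 lay at one of 1520 bp with 14 tags, the lowest of the 10, and no VCaP peak. SETD5, a SET-domain protein, lay at one of 1483 bp with 32 tags and a VCaP partner of 506 bp. Both others were on chromosome 1, at chr1:226309133-226310724 (1592 bp, 35 tags) and chr1:145208780-145210276 (1497 bp, 39 tags), each with a VCaP partner. Across the 10, pileup ran from 14 to 58 tags and fold enrichment from 4.96 to 9.40.

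The broad LNCaP peaks of highest fold enrichment were chosen after their values were seen. The highest, at chr20:5099795-5100838, lay at PCNA, the sliding clamp of replicative DNA polymerases. It was 1044 bp long with 124 tags and a fold enrichment of 18.9 in LNCaP, against 523 bp, 119 tags and 17.8 for its VCaP partner, with summits 45 bp apart. RAB8A, a GTPase of vesicle traffic, lay at a LNCaP peak of 1014 bp with 96 tags, and its VCaP partner had 88 tags over 742 bp. UBR7, a ubiquitin ligase, lay at a LNCaP peak of 1039 bp with 76 tags, and its VCaP partner had 29 tags over 631 bp. Fold enrichment was 15.8 in LNCaP and 17.8 in VCaP at RAB8A, and 15.1 and 8.86 at UBR7. Per 1000000 tags of each library, the summits had 33.8 tags in LNCaP and 13.7 in VCaP at PCNA. They had 26.1 and 10.1 at RAB8A, and 20.7 and 3.34 at UBR7, in the same order of lines. On this scale the median summit of the whole list was also higher in LNCaP, with 3.54 tags against 1.496 in VCaP. A higher LNCaP value was thus not particular to these sites and does not show stronger binding there.

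Broad LNCaP peaks met a VCaP peak more often than shorter ones did, unless the overlap had to be mutual. A VCaP peak overlapped 354 of 514 broad LNCaP peaks by at least 1 bp, 68.9% (64.7 to 72.9), beside 30.2% of the whole LNCaP list and 29.3% (28.7 to 29.9) of its shorter peaks. Against VCaP peaks with −log10 q of at least 5 it was 44% (39.6 to 48.4) of broad and 18.6% (18.1 to 19.1) of shorter ones. Where at least 50% of both intervals had to be shared, the order turned round, with 13.4% (10.6 to 16.7) of broad and 18.4% (17.9 to 18.9) of shorter LNCaP peaks. Long intervals meet others more easily, and find partners of like length less easily, so summits were compared as well. A VCaP summit lay within 200 bp of the summit of 249 broad LNCaP peaks, 48.4% (44.0 to 52.9), beside 25.2% of the whole list. The next shorter LNCaP peaks, of 500 to 999 bp and called medium here, stood at 53.9% (52.8 to 55.1) by overlap and 44.1% (43.0 to 45.3) by summits. No test was run, since peaks of 1 library are not replicates.

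Overlap was higher in longer classes up to 800 bp, level from there to the limit and higher just above it. The classes above the limit did not differ from each other beyond their intervals. Overlap was 7.05% for LNCaP peaks under 300 bp, 46.5% at 500 to 599 bp and 60.8% (56.7 to 64.8) at 900 to 999 bp. Above the limit it was 69.6% (65.1 to 73.9) at 1000 to 1249 bp and 64.4% (52.3 to 75.3) at 1.25 kb or more. The intervals on either side of the limit were narrowly apart. Pileup moved with overlap. With 10 to 19 tags at the summit, overlap was 50.3% in broad LNCaP peaks, 38.6% at 500 to 999 bp and 22.1% under 500 bp. With 20 to 29 tags it was 70.0% in broad, 64.7% in medium and 50.2% in short peaks, and with 30 to 49 tags 84.4%, 85.7% and 74.3% in the same order. The exact 95% intervals of broad and medium peaks overlapped from 20 tags on (63.6 to 75.8 and 62.8 to 66.6 at 20 to 29 tags) and were apart at 10 to 19 tags (41.9 to 58.8 and 37.0 to 40.3). By summits the medium peaks were level or ahead: 28.0% of broad and 28.6% of medium peaks at 10 to 19 tags, and 64.8% of broad and 79.2% of medium peaks at 30 to 49 tags.

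**Figure D2:**
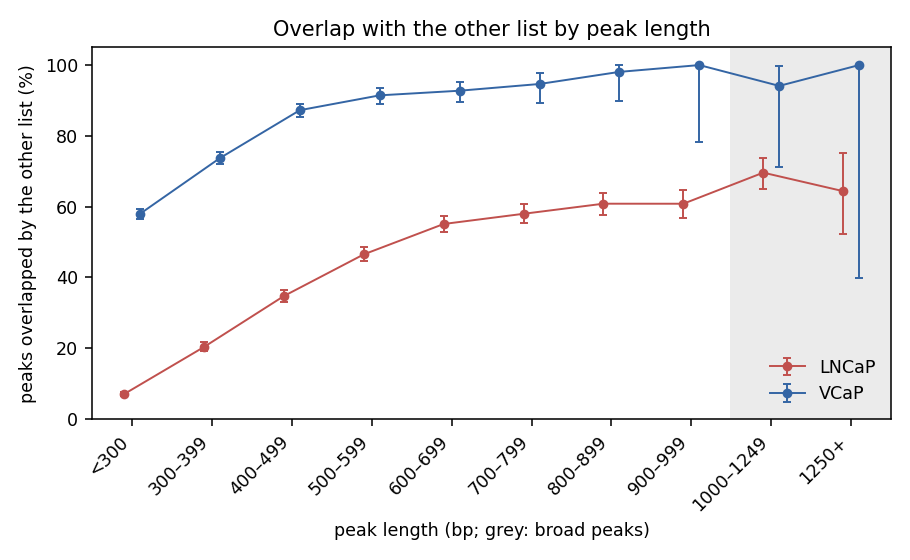
Share of peaks overlapped by at least 1 bp by a peak of the other list (vertical, percent) in classes of length in bp (horizontal), LNCaP in red and VCaP in blue, with exact 95% intervals. The LNCaP share climbs from 7.05% under 300 bp to 69.6% at 1000 to 1249 bp, and VCaP shares are above 90% from 500 bp on.

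The VCaP partners had a median length of 376 bp (quartiles 280 and 510.5), and all overlapping VCaP peaks together covered a median of 35.3% of the LNCaP interval. The partner's length stood at a median percentile of 66.3 of the VCaP list, against 58.8 for partners of shorter LNCaP peaks. That a partner was the shorter interval follows from the choice of long LNCaP peaks and is no result. The summits were a median of 101 bp apart. Fold enrichment was higher in LNCaP in 324 of the 354 pairs, 91.5% (88.1 to 94.2), with a median ratio of LNCaP over VCaP of 1.39. Among shorter LNCaP peaks with a partner it was higher in 79.2% (78.1 to 80.2), and among those of 500 to 999 bp in 86.6% (85.5 to 87.7). Length and fold enrichment come from the same tags, so the choice of long LNCaP peaks enters this share as well. Since each fold enrichment is taken over the background of its own library, it is not a measure of binding between lines.

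Some broad LNCaP peaks spanned what was called as separate peaks in VCaP. Of the 514, 36 met 2 or more VCaP peaks, 7.0% (4.95 to 9.56), against 0.415% of shorter LNCaP peaks. The 160 broad LNCaP peaks without a VCaP partner were lower, with a median of 20 tags and a fold enrichment of 7.0, against 25 tags and 7.73 in the 354 with one. The 5 longest of these were at REV3L and SYDE2, at ZFAND5, a zinc finger protein linked to the proteasome (1475 bp, 21 tags), at SMAD2, a transducer of TGF-beta signals (1450 bp, 30 tags), and at RASEF, a Rab-type GTPase (1412 bp, 26 tags).

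Sites broad in both lists were few. A broad VCaP peak overlapped 0.105% of the whole LNCaP list, and a broad LNCaP peak 4.15% of the whole VCaP list. Among broad peaks the share was higher: the 4 sites broad in both were 0.778% of broad LNCaP and 19% of broad VCaP peaks. One lay at TYMS, thymidylate synthase, a textbook E2F target of deoxynucleotide synthesis whose promoter is printed above with its E2F match. There the LNCaP peak ran over chr18:657368-658604 with 47 tags and a fold enrichment of 10.0, and the VCaP peak over chr18:657355-658522 with 26 tags and 7.25. The intervals nearly coincided, but the summits were 914 bp apart, near opposite ends. The interval was 1237 bp long in LNCaP and 1168 bp in VCaP.

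The second lay at RBM14, an RNA-binding coactivator, at chr11:66383612-66384818 in LNCaP and chr11:66383613-66384635 in VCaP. It had 35 tags in LNCaP and 45 in VCaP, with summits 19 bp apart. The third had no gene name here, at chr7:29724228-29725305 in LNCaP and chr7:29724290-29725433 in VCaP. It was low in both, with 18 tags in LNCaP and 12 in VCaP, the lowest pileup of any broad VCaP peak. The fourth lay beside a peak-free interval, at chr1:121484398-121485468 in LNCaP and chr1:121484218-121485431 in VCaP. It had the highest pileup of all broad LNCaP peaks, 127 tags, and 259 tags in VCaP.

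Broad LNCaP peaks, like those just under the limit, had a near neighbour less often than the list as a whole. Another LNCaP peak lay within 10 kb of 66 of the 514, 12.8% (10.1 to 16), beside 29.5% of the whole list and 29.9% (29.3 to 30.5) of shorter peaks. It was 18.6% (16.1 to 21.2) at 800 to 899 bp. At 900 to 999 bp it was 14.6% (11.8 to 17.7), an interval that overlapped that of broad peaks. The median gap to the nearest LNCaP peak was 39.6 kb for broad and 23.8 kb for shorter ones. At 10 to 19 tags the nearby share was 14% in broad peaks, 24.3% at 500 to 999 bp and 46.5% under 500 bp. At 30 to 49 tags it was 10.7%, 24.3% and 50.7% in the same order. The order by length was the same in both of these bands and in that of 20 to 29 tags. A stretch called as 1 long interval cannot also hold neighbours within it, and the part of this in the difference was not tested.

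In VCaP the difference ran the other way. Another VCaP peak lay within 10 kb of 14 of the 21 broad peaks, 66.7% (43.0 to 85.4), beside 15.6% of the whole list and 15.5% (14.8 to 16.3) of shorter ones. The median gap was 5.23 kb for broad and 50.5 kb for shorter VCaP peaks. Without the 8 broad peaks near peak-free intervals the count was 7 of 13, 53.8% (25.1 to 80.8). The local tag number moved with this: the 10 kb around broad VCaP peaks held a median of 375 tags (range 68 to 2054), against 67.0 around shorter ones. Its part in the clustering was not tested.

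**Figure D3:**
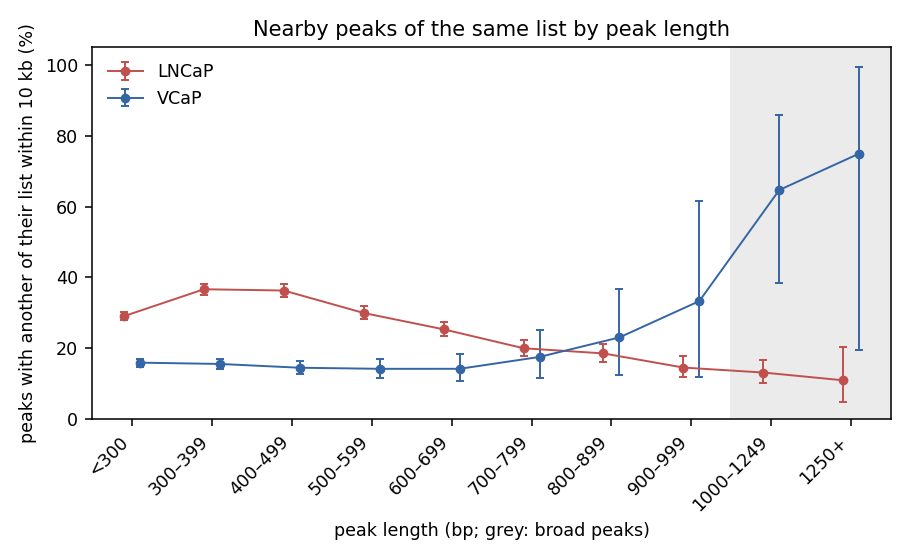
Share of peaks with another peak of the same list within 10 kb (vertical, percent) in classes of length in bp (horizontal), LNCaP in red and VCaP in blue, with exact 95% intervals. The LNCaP share falls to 13.2% at 1000 to 1249 bp, whereas the VCaP share reaches 64.7% in that class.

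Clusters of broad peaks themselves were rare. Chained over gaps of at most 100 kb, 471 broad LNCaP peaks stood alone, 40 formed 20 pairs and 3 formed a triple. The triple, on chromosome 3, lay at P4HTM, a transmembrane prolyl hydroxylase (chr3:49027071-49028088, 20 tags), at WDR6, a WD-repeat protein (chr3:49044430-49045602, 24 tags), and at QRICH1, a glutamine-rich protein (chr3:49130858-49132058, 25 tags). WDR6 and QRICH1 met VCaP peaks and P4HTM none. The first pair along the genome lay at chr1:1550428-1551743, at the ubiquitin ligase gene MIB2, and at chr1:1623793-1624796, with 30 and 21 tags. The next lay at chr1:27675742-27676780 and chr1:27692679-27693718, with 22 and 36 tags. In VCaP 19 broad peaks stood alone and 1 pair was found.

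Broad LNCaP peaks occurred on all 23 chromosomes, and on 17 of them the intervals of their share and that of shorter peaks overlapped. Chromosome 1 held 77 of the 514, 15.0% (12 to 18.4), and 10.6% (10.2 to 11) of shorter peaks. Chromosome 3 held 8.75% of broad and 6.11% of shorter peaks, and chromosome 4 held 6.61% and 3.88%. The share of broad peaks was lower on chromosome 11, with 3.31% against 5.59% of shorter ones, and on chromosome 19, with 3.11% against 5.34%. On X a single LNCaP peak was broad, 0.195% (0.00493 to 1.08), against 2.15% of shorter ones. With 23 chromosomes set side by side, some intervals can part by counting error alone.

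**Figure D4:**
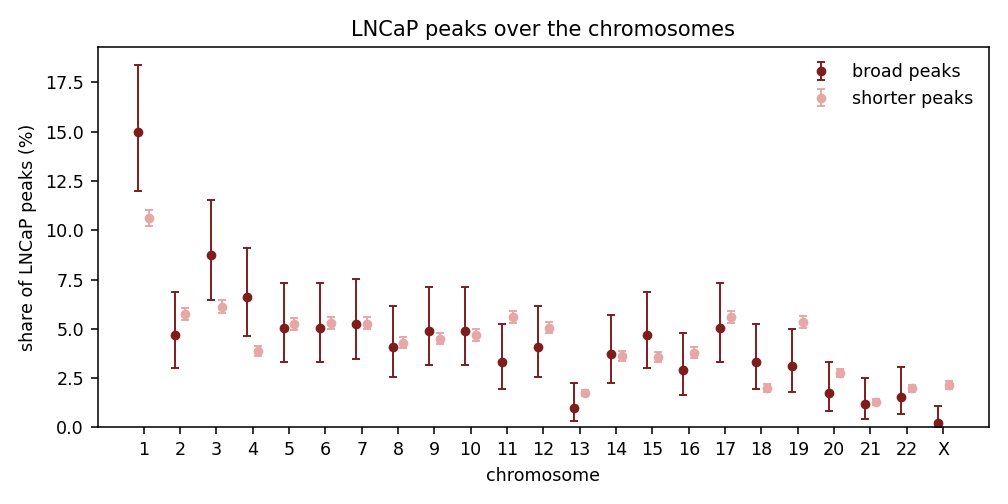
Share of broad LNCaP peaks (dark) and of shorter LNCaP peaks (light) on each chromosome, in percent of their class, with exact 95% intervals. The pairs of intervals are apart on chromosomes 1, 3 and 4, where broad peaks have the larger share, and on 11, 19 and X, where they have the smaller one.

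The 21 broad VCaP peaks were of 2 kinds of surroundings. Among them 8, 38.1% (18.1 to 61.6), were less than 1 Mb away from a stretch of 2.5 Mb or more without any peak in either list. Of shorter VCaP peaks 3.55% were. In LNCaP this was so for 11 of 514 broad peaks, 2.14% (1.07 to 3.80), and for 2.93% of shorter ones. The 57 such stretches were found from the peaks alone. No map of centromeres or assembly gaps was used. The 10 kb around these 8 VCaP peaks held a median of 1277.5 tags (298 to 2054) and their summits 169 tags (35 to 267). Around the other 13 there were 279 tags (68 to 1293), and 40 at the summits (12 to 201). The ranges of both measures overlapped. The part of the local tag number in their length was not tested, and no input library was used here.

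The longest VCaP peaks belonged mostly to the first kind. The peak of 3062 bp at chr6:58776333-58779394 had 180 tags but a fold enrichment of only 3.83, since its 10 kb held 2054 tags. Its highest LNCaP partner was 402 bp long with 21 tags. Of the 6 longest, 5, on chromosomes 6, 18, 10, 2 and 1, were near peak-free intervals, and their LNCaP partners were 402, 760, 466, 400 and 1071 bp long. The exception, at chr18:107870-109451 with 1582 bp and 201 tags, held 1293 tags in its 10 kb, and its LNCaP partner had 19 tags over 380 bp. The one broad VCaP peak that no LNCaP peak overlapped, at chr16:46426976-46428118 with 35 tags, was also near such an interval. The other 2, at chr7:61968699-61969716 and chr17:22260672-22261684, had 267 and 121 tags.

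Among the 13 away from peak-free intervals 7 lay on chromosome 11 within 3.72 Mb, at chr11:63438312-67159642. That is 33.3% (14.6 to 57.0) of broad VCaP peaks on a chromosome with 6.39% of the shorter ones. Chromosome 18 was the only other one with intervals apart in VCaP. It held 3 broad peaks, 14.3% (3.05 to 36.3), against 1.48% (1.25 to 1.75) of shorter ones. As in LNCaP, some intervals can part by counting error alone. The stretch on chromosome 11 was drawn from the first to the last of its 7 broad peaks. Its share of broad VCaP peaks, and the contrast with LNCaP, follow from that choice and are no result. It held 144 VCaP peaks, of which 4.86% were broad, and 141 LNCaP peaks, of which 2 or 1.42% were. Tags were dense there in both libraries. The 10 kb around its peaks held a median of 174.5 tags in VCaP, against 68.0 over that list, and 101 in LNCaP, against 51 over that list. The part of this density in the length of the peaks was not tested.

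The 7 peaks on chromosome 11 lay at genes of several kinds, among them a subunit of a chromatin-modifying complex and a DNA damage checkpoint factor. ATL3, a GTPase that shapes the endoplasmic reticulum, had the highest fold enrichment of the broad VCaP peaks, 9.80, with 101 tags over 1004 bp, and its LNCaP partner had 55 tags over 785 bp at a fold enrichment of 12.1. Its promoter, printed above, holds 2 matches to the E2F motif. KAT5, the catalytic subunit of the TIP60 acetyltransferase complex, lay at a peak of 34 tags over 1082 bp, and RAD9A, part of the checkpoint clamp loaded at damaged DNA, at one of 27 tags over 1062 bp. MACROD1, which removes ADP-ribose, had 40 tags over 1046 bp, and RBM14 has been given above. GPR137, an orphan receptor, and the pair TRMT112 and PRDX5, a methyltransferase partner and a peroxiredoxin, made up the single VCaP pair. Their peaks had 49 tags over 1008 bp and 32 tags over 1028 bp.

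Elsewhere TYMS and 3 further named genes lay at broad VCaP peaks. ING1, a chromatin reader and tumour suppressor, had 63 tags over 1197 bp, at a fold enrichment of 4.00 in a window of 667 tags, and a LNCaP partner of 933 bp. PMVK, an enzyme of cholesterol synthesis, had 66 tags over 1130 bp and a LNCaP partner of 859 bp. ACTB, cytoplasmic actin, had 15 tags over 1033 bp and a LNCaP partner of 28 tags over 940 bp.

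Broad VCaP peaks were overlapped by LNCaP peaks more often than shorter ones with the full lists, while with lists of equal length the shares did not differ beyond their intervals. A LNCaP peak overlapped 20 of the 21, 95.2% (76.2 to 99.9), beside 71.2% of the whole VCaP list, and the summits were within 200 bp for 12 of 21, 57.1% (34 to 78.2), beside 59.0%. High overlap was not particular to broad peaks. VCaP peaks of 500 to 999 bp stood at 92.5% (90.9 to 93.9) by overlap and 71.6% (69.0 to 74.1) by summits. With the LNCaP list limited to as many peaks of highest fold enrichment as the VCaP list has, overlap was 52.4% (29.8 to 74.3) for broad and 52.0% (51 to 53) for shorter VCaP peaks. By summits the broad share was not above that of the list either. The LNCaP partners had a median length of 796.5 bp, at the percentile of 90.6 of the LNCaP list, and 19 of 20, 95% (75.1 to 99.9), were longer than its median of 395 bp. Partners of shorter VCaP peaks were long as well, with a median of 587.5 bp, and 81.6% (80.7 to 82.5) of them exceeded that median, so that the intervals overlapped. Fold enrichment was higher in VCaP for 6 of the 20, 30% (11.9 to 54.3), and for 19.2% of shorter VCaP peaks with a partner.

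**Figure D5:**
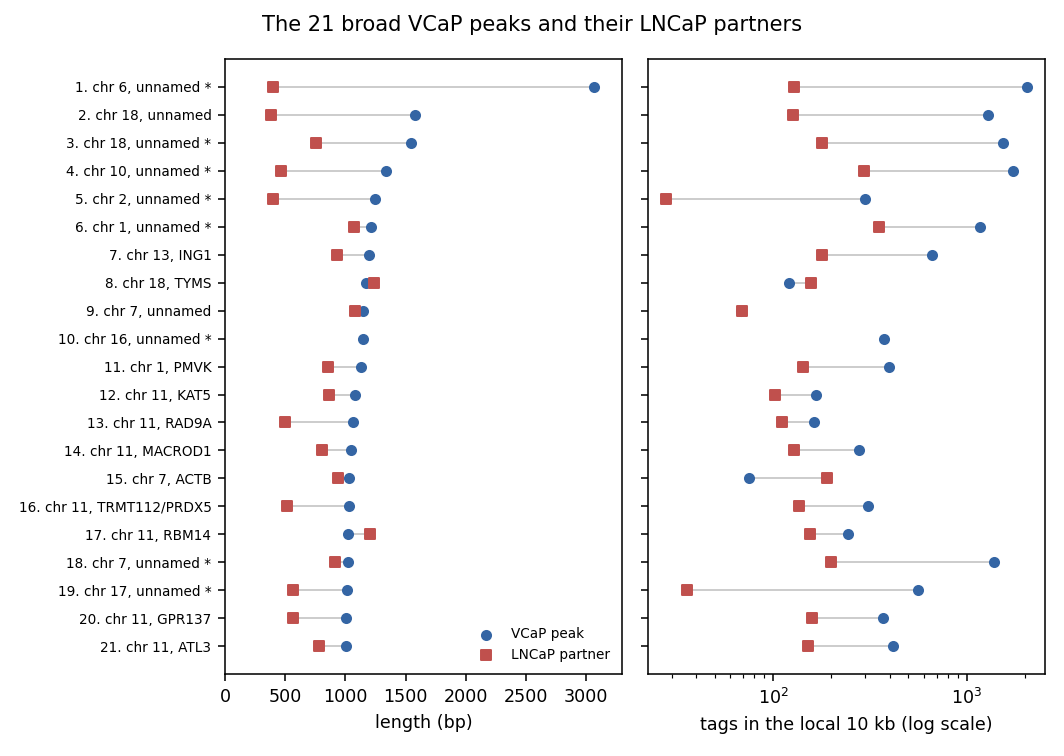
Length in bp (left) and tags in the local 10 kb (right, log scale) of each of the 21 broad VCaP peaks (blue circles) and of the overlapping LNCaP peak of highest fold enrichment (red squares), from the longest down; a star marks peaks near a peak-free interval. VCaP peaks were chosen for their length, so the left side shows how long the LNCaP partners are, 380 to 1237 bp; the starred peaks hold 298 to 2054 tags in their windows.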

How the data were processed

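Each library was given to MACS 2.1.0.20140616 alone, with no control, and the authors kept peaks up to a q-value of 0.05, per the file headers, with 75 bp tags and 1 tag kept per position. The modelled fragment length was 241 bp in LNCaP and 225 bp in VCaP. The submitters' processing notes name hg19, MACS2 and HOMER; the aligner is not given in the sources used here. The deposited pileup is a coverage signal at the summit, the deposited fold enrichment a ratio to the local background, and significance was deposited as −log10 p-values and −log10 q-values. None was rescaled between libraries.

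Tags in the local 10 kb were computed back from pileup and fold enrichment and came out whole within 0.05 tags for 100% of peaks above the genome mean. Overlap meant at least 1 bp; the partner was the overlapping peak of highest fold enrichment. Shares carry exact 95% binomial intervals (Clopper-Pearson) that cover counting error only, and the overlap counting was tested on simulated peaks. Gene names came from general knowledge of hg19; they were set against RefSeq GRCh38.p14 by eye for chromosome and approximate place, and no coordinate was converted. Python 3.11.15, pandas 2.3.3, SciPy 1.17.1 and matplotlib 3.10.9 were used.

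Named were the 10 longest peaks of each list, sites broad in both, the 5 longest without overlap, the 3 on each side of the limit and the 3 clusters with most broad peaks. The broad peaks of highest fold enrichment in each list and all broad VCaP peaks were named as well. The broad peaks, lists and limits were chosen with earlier results of these data known. Pathway gene lists were not analysed here, since they need an hg19 annotation.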

Additional observations from a re-analysis of the deposited data

Results flagged for a closer look

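The share of peaks with a neighbour of the same list within 10 kb differed between broad and shorter peaks in opposite directions in the lines. It was 17 percentage points lower in broad than in shorter peaks of LNCaP (a difference of -17) and 51.1 points higher in broad than in shorter peaks of VCaP. The sign of each was the same at distances of 5, 10, 25 and 50 kb and at length limits of 800, 1000 and 1500 bp and 1.25 kb. These settings share peaks, and the upper limits leave few. At 1.25 kb there were 4 broad peaks in VCaP, and at 1500 bp 3 in VCaP and 8 in LNCaP. The difference between the lines was not tested, since each has 1 library.

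Mitochondrial sequence lies outside the chromosomes described and was in no comparison. In VCaP 2 of its 3 mitochondrial peaks were broad, of 2777 and 2611 bp, with a pileup of 311 tags at the higher summit, and neither exceeded a fold enrichment of 2.17. In LNCaP none of 4 mitochondrial peaks was broad.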

How the results depend on the processing

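Of 78 values recomputed under other settings for 12 results, 35 stayed within their limits (1.5 times for a count, the exact 95% interval for a share or median) and 43 did not; the cause was not tested beyond what each setting changes by its construction. At a length limit of 800 bp, broad peaks numbered 2018 in LNCaP and 88 in VCaP, at 1.25 kb 73 and 4, and at 1500 bp 8 and 3; with neighbours joined over gaps of up to 500 bp they numbered 1213 and 71, and without peaks near peak-free intervals, a setting chosen after seeing the data, 13 in VCaP. The share of LNCaP broad peaks overlapped by VCaP was 62.9%, 64.4% and 75% at limits of 0.8, 1.25 and 1.5 kb, 13.4% where at least 50% of both intervals had to be shared, 48.4% by summits within 200 bp and 44% against VCaP peaks with −log10 q of at least 5. For VCaP broad peaks it was 100% at 1.25 and at 1.5 kb and without peaks near peak-free intervals, 66.7% with 50% covered, 57.1% by summits and 52.4% with lists of equal length. The share broad in both was, in LNCaP, 2.23% at 800 bp, 0 at 1.25 and 1.5 kb and 0.195% by summits, and in VCaP 51.1% at 800 bp, 0 at 1.25 and 1.5 kb and 4.76% by summits. The share with a neighbour was, in LNCaP, 3.89%, 33.9% and 58.8% at 5, 25 and 50 kb, and in VCaP 85.7% at 25 and at 50 kb and 35.2% at a limit of 800 bp. Median pileup was 22, 26 and 31.5 tags in LNCaP and 27.5, 190.5 and 180 tags in VCaP at limits of 0.8, 1.25 and 1.5 kb, and median fold enrichment at 1500 bp was 6.75 in LNCaP and 4.45 in VCaP. No paired analysis was possible because each line has 1 library and no result comes from a test. Shares at gene starts and the base composition of the peaks were not run, since no hg19 annotation or genome was used here. With 21 broad VCaP peaks, every share there has a wide interval; LNCaP had fewer tags than VCaP, and neither input nor replicates were used, so that length, depth and background of the libraries cannot be told apart from the line.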
